A study of Mus musculus with 4 samples.

Results

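The CXCR2 axis and the platelet chemokines were followed here as 6 genes, chosen by name from 13071 genes in the table that joins all immune cells of 2 tumour types: the ligands Cxcl1, Cxcl2 and Cxcl3, the platelet chemokines Ppbp and Pf4, and the receptor Cxcr2. All 6 were present there and among the 12996 genes of a second table, which holds only monocytes and tumour-associated macrophages (TAMs). The study, whose title names CD40 agonists, conventional dendritic cells and suppressive macrophages, profiled immune cells of subcutaneous mouse tumours with 10x Genomics single-cell RNA sequencing. The LLC library came from Lewis lung carcinoma tumours grown in F11r fl/fl LysM-Cre- mice, which carry floxed alleles of the adhesion molecule gene F11r but no Cre recombinase. The LLC_CITEseq library came from the same carcinoma grown in C57BL/6J mice and was stained with DNA-tagged antibodies (CITE-seq), and the B16 library came from B16 melanoma grown in C57BL/6J mice. Each library was a pool of 3 mice, and no group had more than 1 library.

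Neutrophils carry Cxcr2, a G protein-coupled receptor that draws them along gradients of CXC chemokines out of the marrow and into inflamed tissue and tumours. Cxcl1, Cxcl2 and Cxcl3 are its inducible ligands, made by myeloid and stromal cells during inflammation. Ppbp encodes platelet basic protein, which platelets store in their alpha granules and which becomes a Cxcr2 ligand once it is trimmed, and Pf4 encodes platelet factor 4, an alpha-granule chemokine that binds heparin, does not act mainly through Cxcr2 and is also made by tissue macrophages.

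The 5 chemokine genes lie on the forward strand of chromosome 5 in mm10, as protein-coding genes in the GENCODE annotation. Ppbp lies at chr5:90768518-90770063, Pf4 at chr5:90772435-90773383, Cxcl3 at chr5:90786103-90789600, Cxcl1 at chr5:90891241-90893115 and Cxcl2 at chr5:90903871-90905938. The gap between Ppbp and Pf4 spans 2371 bases. Cxcr2 lies apart from them at chr1:74153989-74161246, also on the forward strand. The promoter sequences printed here are shown because the 3 inducible ligands share a run of letters that their platelet neighbours lack. They run from 150 to 31 bases before each gene's start in RefSeq (GRCm38.p6, forward strand, 5′ to 3′). For Cxcl1, Cxcl2 and Cxcl3 that RefSeq start differs from the GENCODE start given above. The printed stretches lie at chr5:90891095-90891214 for Cxcl1, chr5:90903749-90903868 for Cxcl2, chr5:90785951-90786070 for Cxcl3, chr5:90768368-90768487 for Ppbp and chr5:90772285-90772404 for Pf4. Capitals mark the longest run of letters that Cxcl1, Cxcl2 and Cxcl3 have in common.
Cxcl1: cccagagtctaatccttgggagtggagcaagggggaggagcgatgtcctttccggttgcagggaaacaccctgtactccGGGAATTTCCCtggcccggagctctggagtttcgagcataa
Cxcl2: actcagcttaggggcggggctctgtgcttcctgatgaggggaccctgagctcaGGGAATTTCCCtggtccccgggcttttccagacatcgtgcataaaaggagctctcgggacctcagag
Cxcl3: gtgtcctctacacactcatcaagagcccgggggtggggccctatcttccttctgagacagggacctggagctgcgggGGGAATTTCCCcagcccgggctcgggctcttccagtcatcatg
Ppbp: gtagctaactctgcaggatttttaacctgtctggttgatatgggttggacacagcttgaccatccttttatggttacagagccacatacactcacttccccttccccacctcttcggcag
Pf4: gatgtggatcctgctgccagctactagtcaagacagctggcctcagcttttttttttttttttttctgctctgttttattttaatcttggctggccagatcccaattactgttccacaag

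The shared run, GGGAATTTCCC, is 11 bases long and belongs to the kappa-B type of motif. It begins 71 bases before the RefSeq start of Cxcl1, 97 before that of Cxcl2 and 73 before that of Cxcl3. On either strand, 14 of 32851 promoters, or 0.0426%, held these letters within 250 bases before the start, and Cxcl1, Cxcl2 and Cxcl3 were the only members among them. The longest run that Ppbp and Pf4 shared was 8 bases. A match of letters describes the sequence and is no evidence of a bound factor.

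The joined table held 13021 LLC cells, with a median of 6174 transcripts counted by unique molecular identifier (UMIs) per cell, and 6870 B16 cells, with a median of 8315. The monocyte and macrophage table held 8155 LLC, 10131 LLC_CITEseq and 2297 B16 cells, with medians of 6530, 4546 and 9250 UMIs. Cell names are those of the authors' deposited annotation, and pooled neutrophils are its 2 neutrophil clusters. LLC and B16 shared 29 cell barcodes in the joined table. Of the 890 LLC cells annotated as neutrophil-like monocytes, 39.4% had a doublet score among the highest 6% of their library, so those cells were kept apart from monocytes and from neutrophils. Levels are counts-per-million (CPM), the UMIs of a gene scaled to all UMIs of the cells named. Intervals are exact 95% Poisson or binomial intervals and reflect counting alone. No test between groups was possible with 1 library in each, so a gene counts as higher or lower at 1.5-fold or more. That reading was limited to genes whose UMIs on the 2 sides add up to 20 or more, in clusters of at least 50 cells in each library. Tumour type and mouse strain cannot be told apart in LLC against B16. Free RNA was gauged in naive T cells, which should lack these genes: they had 346 CPM of Cxcl2, 113 of Cxcl3, 10.4 of Ppbp, 96.0 of Pf4 and 18.8 of Cxcr2 in LLC, against 21.8, 11.9, 0.330, 12.9 and 2.64 CPM in B16, and none had a Cxcl1 UMI. That gauge is in CPM and was not adjusted for RNA depth. It rests on few UMIs for Ppbp, 5 in LLC and 1 in B16, and for Cxcr2, 9 in LLC and 8 in B16. By median, naive T cells had fewer UMIs per cell than each library as a whole.

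Cxcl2 was highest in tumour neutrophils, followed by the neutrophil-like monocytes and then by immature macrophages. Neutrophils made up 15.0% of LLC cells and 4.35% of B16 cells, and held 40.3% of all Cxcl2 UMIs in LLC and 48.5% in B16, while monocytes and macrophages held 29.2% and 33.1%. Cxcl2 reached 42589 CPM in LLC and 38037 in B16 within the Neutrophil-2 cluster. In Neutrophil-1 it stood at 15022 CPM in LLC and 3764 in B16. The tumours thus differed little in Neutrophil-2, by 1.12-fold (1.09 to 1.15), and by 3.99-fold (3.78 to 4.22) in Neutrophil-1. Neutrophil-2 made up 58.4% of LLC neutrophils and 28.4% of B16 neutrophils, and the 2 clusters together gave 32294 CPM in LLC and 13975 in B16, a ratio of 2.31 (2.26 to 2.37). The most loaded LLC neutrophil held 1756 Cxcl2 UMIs and the most loaded B16 neutrophil 673.

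Cxcl3 followed Cxcl2 in neutrophils, with a wider gap between tumours. Its level in Neutrophil-2 was 10965 CPM in LLC and 6996 in B16, a ratio of 1.57 (1.48 to 1.67). In Neutrophil-1 the levels were 2294 CPM in LLC and 250 in B16, a ratio of 9.18 (7.46 to 11.4). Cxcl1, the ligand best known from epithelial and stromal cells, was sparse in neutrophils, with 71 UMIs in 1955 LLC cells and 5 UMIs in 299 B16 cells. Its ratio of 2.17 had an interval of 0.886 to 6.88, and in Neutrophil-2, at 30.2 CPM in LLC and 32.0 in B16, the 2 tumours lay within counting error (0.943, 0.384 to 3.00). Depth per cell was low in this class, with a median of 1492 UMIs in LLC neutrophils and 1700 in B16 neutrophils.

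**Figure D1:**
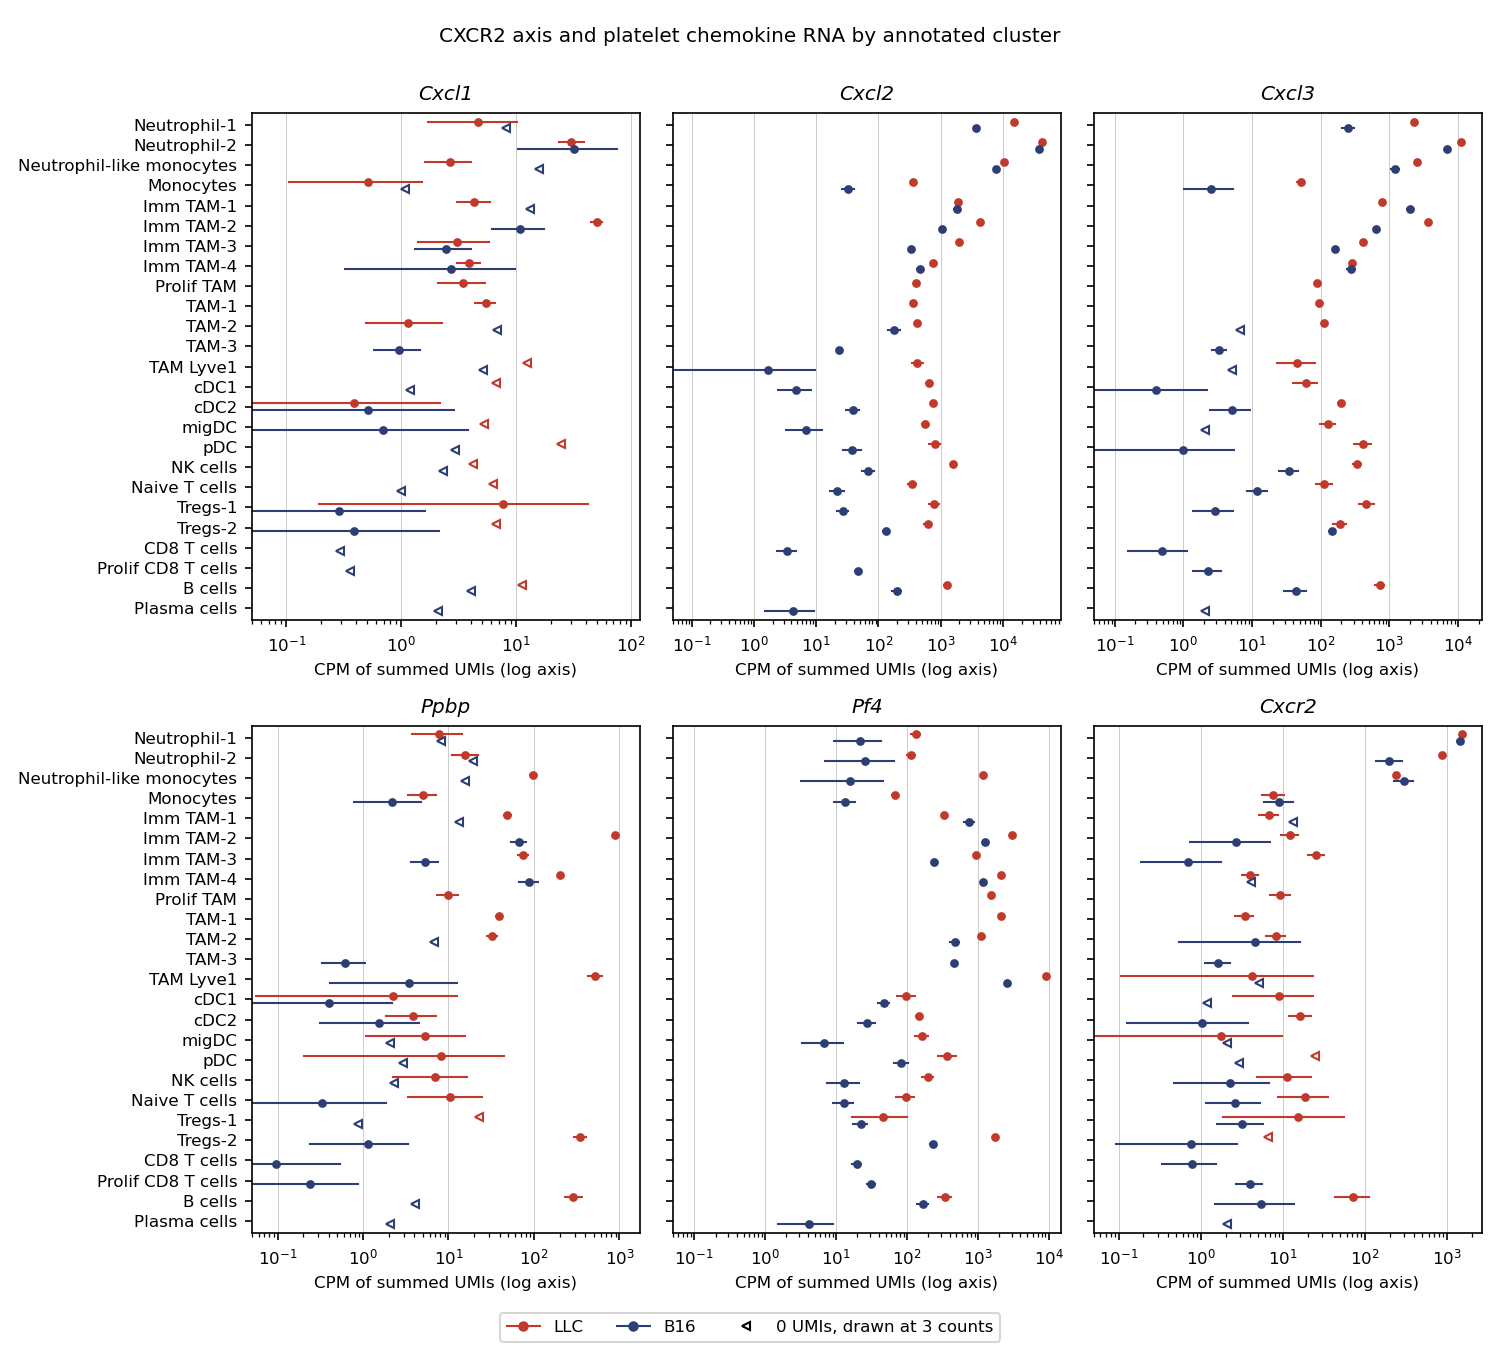
Level of each of the 6 genes in each annotated cluster of at least 20 cells, in CPM on a log axis, with LLC in red above B16 in blue, bars for exact 95% Poisson intervals and open triangles for clusters with 0 UMIs drawn at 3 counts. Cxcl2 and Cxcl3 peak in Neutrophil-2 in both libraries, Cxcr2 in Neutrophil-1, and Pf4 in TAM Lyve1 (9212 CPM in LLC, 2566 CPM in B16).

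Among macrophage clusters with at least 50 cells in each library, the inducible ligands were highest in Imm TAM-2. Imm TAM-2 had 4367 CPM of Cxcl2 in LLC against 1056 CPM in B16, a ratio of 4.14 (3.93 to 4.35). Cxcl3 there stood at 3584 CPM in LLC and 637 in B16, a ratio of 5.63 (5.28 to 6.01), and Cxcl1 at 50.1 CPM in LLC and 10.8 in B16, a ratio of 4.66 (2.82 to 8.25). Within LLC the Imm TAM-2 level was 12.4 times that of monocytes for Cxcl2 and 69.9 times for Cxcl3; within B16 it was 32.1 and 252 times. These contrasts between clusters are descriptions, because the clusters were built from the same cells.

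The gap between tumours was not the same in every macrophage cluster. For Cxcl2 the ratio of LLC to B16 was 10.8 (8.72 to 13.4) in monocytes, at 353 CPM in LLC and 32.9 in B16, and 5.79 (5.50 to 6.10) in Imm TAM-3, at 1954 and 338 CPM. It was 1.63 (1.46 to 1.81) in Imm TAM-4, at 761 CPM in LLC and 468 in B16. The LLC monocyte level lay next to the 346 CPM of LLC naive T cells, and that of Imm TAM-4 above it. Taking each library's naive T cell level off, an alternative added after the data were seen, left ratios of 0.636 in monocytes and 0.930 in Imm TAM-4. The subtraction took off CPM without regard to RNA depth per cell, so these ratios do not settle which tumour was higher. For Cxcl3 the monocyte levels, 51.3 CPM in LLC and 2.53 in B16, were below those of naive T cells in both libraries, and Imm TAM-4 had 281 CPM in LLC and 278 in B16, a ratio of 1.01 (0.879 to 1.17).

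Cxcl2 was also higher in LLC in lymphoid and dendritic cells. NK cells had 1585 CPM in LLC against 67.9 CPM in B16, conventional dendritic cells of the cDC2 cluster had 754 CPM against 38.5 CPM, and migratory dendritic cells (migDC) had 559 CPM against 6.88 CPM. At 1.5-fold, 9.31% of genes were higher in LLC NK cells, 16.3% in cDC2 and 12.7% in migDC. Summed neutrophil markers were higher there too, at 2151 CPM in LLC and 123 in B16 NK cells, 1514 and 387 CPM in cDC2, and 724 and 104.6 CPM in migDC. In cDC2 the neutrophil alarmin gene S100a9 was 522 CPM in LLC and 7.71 in B16, and the part of neutrophil RNA in these Cxcl2 levels was not tested. Cxcl2 was present in 34.1% of LLC naive T cells and 2.02% of B16 naive T cells, at median depths of 2455 UMIs in LLC and 3736 in B16, and in 18.7% and 0.812% after every cell was thinned to 1000 UMIs. The part of free RNA in the levels of non-neutrophil clusters was not tested beyond that subtraction.

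Over all monocytes and macrophages, all 6 genes were at least 1.5-fold higher in LLC, where 11.9% of 11261 measured genes were. Different clusters hold most of that class in the 2 libraries: TAM-3 was 0.1% of it in LLC and 47.1% in B16, while Imm TAM-4 was 29.1% in LLC and 2.5% in B16. Cluster by cluster, 6 of 6 were higher in LLC in Imm TAM-2 (background 20.7%), 5 of 6 in Imm TAM-3 (11.6%), all but Cxcl1 (1.26, 0.481 to 3.12), and 3 of 6 in Imm TAM-4 (18%), namely Cxcl2, Ppbp and Pf4. Cxcr2 in LLC Imm TAM-2, at 12.1 CPM, lay below the 18.8 CPM of LLC naive T cells, and B16 Imm TAM-2 held 4 Cxcr2 UMIs. In monocytes 4 were higher, Cxcl2, Cxcl3, Ppbp and Pf4 (8.27%), and Cxcl1 fell under the minimum. In LLC monocytes Pf4, at 67.6 CPM, Cxcl3 and Ppbp lay below the naive T cell level and Cxcl2 beside it, while B16 monocytes had 13.4 CPM of Pf4 against 12.9 CPM in B16 naive T cells. Over pooled neutrophils 5 were higher (14.9%), all but Cxcr2. Of these, Ppbp was called with 3 counts assumed for B16, and Ppbp and Pf4 lay near the naive T cell level in LLC. No member was at least 1.5-fold lower in LLC in any of these 8 classes, where the share of lower genes was 9.42% in Imm TAM-2, 10.6% in Imm TAM-3, 10.7% in Imm TAM-4, 11.2% in monocytes, 11.9% over monocytes and macrophages, 26.1% in Neutrophil-1, 29.7% in Neutrophil-2 and 30.9% over neutrophils.

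**Figure D2:**
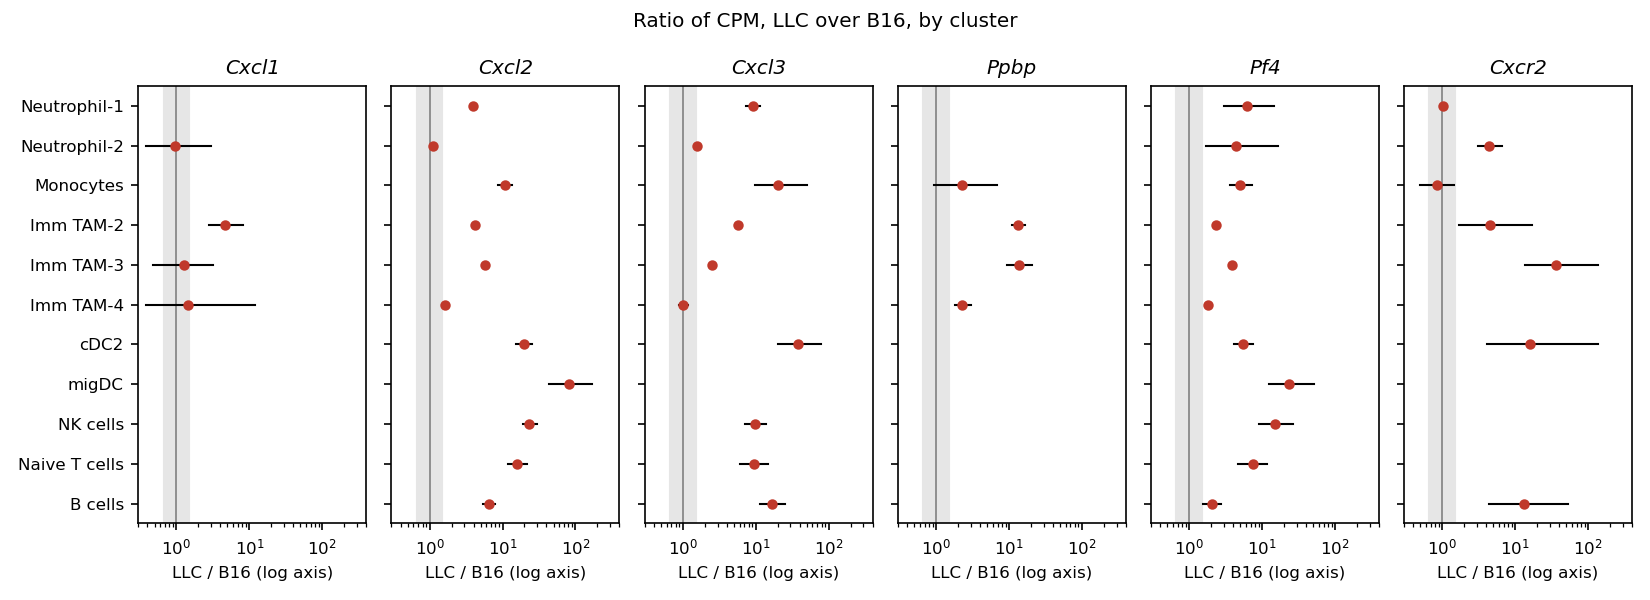
Ratio of LLC to B16 for each of the 6 genes in each cluster with at least 50 cells in both libraries, on a log axis, with bars for exact 95% intervals and a grey band for less than 1.5-fold. Ppbp reaches 13.3 in Imm TAM-2 and 14.0 in Imm TAM-3, whereas Cxcr2 in Neutrophil-1 (1.03) and Cxcl2 in Neutrophil-2 (1.12) lie inside the band.

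Ppbp, the platelet basic protein gene, was detected mostly in macrophages of LLC tumours. Monocytes and macrophages held 91.8% of all Ppbp UMIs in LLC and 95.2% in B16. Its level over that class was 151 CPM in LLC and 6.46 in B16. In Imm TAM-2 it was 886 CPM in LLC and 66.6 in B16, a ratio of 13.3 (10.9 to 16.4), and in Imm TAM-4 it was 201 CPM in LLC and 87.4 in B16, a ratio of 2.30 (1.80 to 2.99). Monocytes, at 4.99 CPM in LLC and 2.17 in B16, lay under the naive T cell level in LLC, and their ratio of 2.30 had an interval of 0.940 to 6.78.

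Few cells accounted for most of the Ppbp signal. A Ppbp UMI was found in 9.60% of LLC monocytes and macrophages and in 1.02% of B16 ones, and after thinning to 1000 UMIs in 4.22% of LLC and 0.329% of B16 cells. Naive T cells had a Ppbp UMI in 1.65% of LLC and 0.135% of B16 cells at that depth. The top 1% of cells, rounded up to 92 LLC and 28 B16 cells, held 59.4% of the Ppbp UMIs of the LLC class and all of those of the B16 class. The B16 share follows from detection, since only 1.02% of the B16 cells had a Ppbp UMI. In the B16 Imm TAM-4 cluster 1 cell held 64 of the 65 Ppbp UMIs, so the B16 side of that ratio rests on it. The top 1% also held 84.4% of LLC and all of B16 Cxcl1 UMIs, 30.1% and 87.8% of Cxcl3, 19.8% and 49.4% of Cxcl2, and 15.8% and 23.0% of Pf4.

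**Figure D3:**
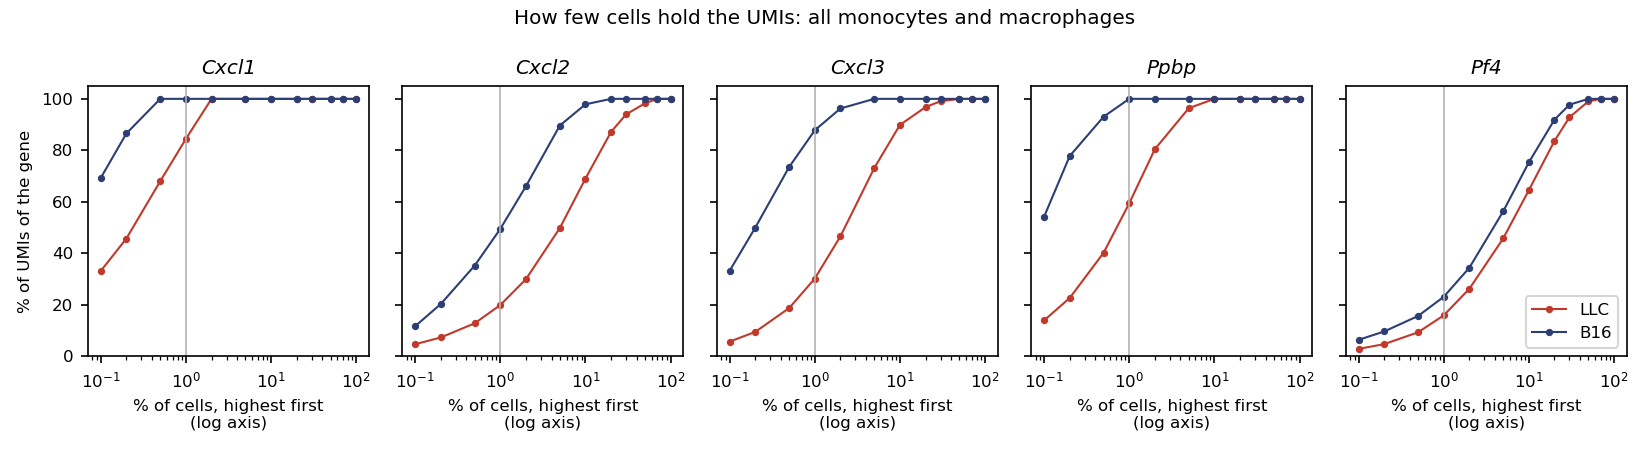
Cumulative percent of each gene's UMIs (vertical axis) against the percent of cells, ranked from the most to the least loaded (horizontal axis), in monocytes and macrophages of LLC and B16. Ppbp and Cxcl1 climb steepest, with 59.4% and 84.4% of their LLC UMIs in the top 1% of cells, and Pf4 is the most evenly spread of the 5 chemokines, at 15.8%. The LLC totals were 11650 UMIs for Ppbp, 578 for Cxcl1 and 129827 for Pf4, and the shares were not adjusted for them.

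Pf4 was highest in the TAM Lyve1 cluster in both tumours, and monocytes and macrophages held 92.1% of its UMIs in LLC and 91.2% in B16. The 23 LLC and 42 B16 cells of the TAM Lyve1 cluster all had a Pf4 UMI, at 9212 CPM in LLC and 2566 in B16. TAM-1, nearly all from LLC, had 2150 CPM, and TAM-3, nearly all from B16, had 468 CPM. Where one cluster could be compared across tumours the gap was moderate: 2.36 (2.25 to 2.47) in Imm TAM-2, at 3011 CPM in LLC and 1279 in B16, and 1.82 (1.70 to 1.94) in Imm TAM-4, at 2155 CPM in LLC and 1186 in B16. Neutrophils had 44 Ppbp UMIs in LLC and 0 in B16, a ratio of 2.24 with 3 counts assumed for B16. The LLC level, 12.8 CPM, lay beside the 10.4 CPM of LLC naive T cells, at 1.23 times it (0.488 to 3.96). In neutrophils Pf4 was 121 CPM in LLC and 22.9 in B16, close to the naive T cell levels of 96.0 and 12.9 CPM.

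Lymphoid clusters in which Ppbp was counted also held UMIs of macrophage or neutrophil genes. The 102 LLC B cells had 77 Ppbp UMIs, 96.1% of them in 2 cells, and their summed neutrophil markers stood at 8892 CPM against 765 CPM in B16 B cells. The 47 LLC cells of Tregs-2 had 347 CPM of Ppbp and 1753 CPM of Pf4, beside 5936 CPM of summed macrophage markers. Of those Tregs-2 cells 42.6% in LLC had a doublet score in the highest 6% of their library, against 55.2% of the 165 in B16, and of the B cells 8.82% in LLC and 6.82% in B16.

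Cxcr2, the receptor, marked neutrophils in both tumours, and its neutrophil level did not separate LLC from B16. Neutrophils held 61.3% of all Cxcr2 UMIs in LLC and 74.1% in B16. Their level was 1107 CPM in LLC and 1074 in B16, a ratio of 1.03 (0.944 to 1.13), and 70.1% of LLC and 67.9% of B16 neutrophils had a Cxcr2 UMI, against 2.16% of LLC and 0.538% of B16 naive T cells. Cxcr1, the sister receptor, had 606 UMIs in LLC, 379 of them in neutrophils, and 0 in B16, as 272 genes of the table did. Neutrophil-1 had 1495 CPM in LLC and 1445 in B16, again 1.03 (0.939 to 1.14). The near equality of the pooled level combined different mixtures of clusters, since in Neutrophil-2 Cxcr2 was 877 CPM in LLC and 198 in B16, a ratio of 4.42 (3.10 to 6.52). In that cluster 3 of 6 members were higher in LLC, Cxcl3, Pf4 and Cxcr2 (background 24.5%), and in Neutrophil-1 Cxcl2, Cxcl3 and Pf4 of 4 members past the minimum (12.8%). A Cxcr2 UMI was found in 62.3% of LLC Neutrophil-2 cells and in 15.3% of the 85 B16 ones, and after thinning to 1000 UMIs in 51.8% and 12.0%. The summed neutrophil markers of Neutrophil-2 moved the same way, at 115067 CPM in LLC and 40770 in B16, and their part in the Cxcr2 gap was not tested.

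Receptor and ligand ran in opposite directions across the neutrophil clusters, which is again a description of clusters built from these cells. Cxcr2 in Neutrophil-2 was 0.59 times (0.55 to 0.63) its Neutrophil-1 level in LLC and 0.14 times (0.09 to 0.20) in B16. Cxcl2 in Neutrophil-2 was 2.84 times its Neutrophil-1 level in LLC and 10.1 times in B16, and Cxcl3 4.78 and 28.0 times. Cell by cell, at 1000 UMIs per cell, Cxcl2 was detected in 92.4% of LLC neutrophils with a Cxcr2 UMI and 94.9% of those without, and in 40.3% of B16 neutrophils with a Cxcr2 UMI and 76.3% of those without. Within Neutrophil-1 of B16 the shares were 35.4% of cells with Cxcr2 and 52.7% of cells without. In LLC they leaned slightly the other way inside each cluster, at 85.5% and 82.8% in Neutrophil-1 and 99.6% and 98.8% in Neutrophil-2. The pooled LLC shares thus also reflect the mixture of clusters. The LLC neutrophils were thus nearly all positive for Cxcl2 whether or not they held Cxcr2, and the B16 ones were split.

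Over all monocytes and macrophages Cxcr2 was 6.69 CPM in LLC, at 0.356 times (0.186 to 0.783) the naive T cell level. In B16 it was 2.06 CPM, within counting error of that level, at 0.781 times (0.375 to 1.88). The naive T cell levels, 18.8 CPM in LLC and 2.64 in B16, rest on 9 and 8 Cxcr2 UMIs. Single clusters lay above those levels, with 25.4 CPM in LLC Imm TAM-3 and 9.03 CPM, from 25 UMIs, in B16 monocytes. The 890 LLC neutrophil-like monocytes had 237 CPM and the 31 B16 ones 298 CPM. The LLC cells of that cluster also had 10373 CPM of Cxcl2, between monocytes and neutrophils, and 1191 CPM of Pf4, which was 9.84 times the level of LLC neutrophils.

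The ligands tended to be found in the same macrophages. At 1000 UMIs per cell, Cxcl3 was detected in 35.2% of LLC monocytes and macrophages with a Cxcl2 UMI and 5.74% of those without, and in B16 in 18.5% and 0.82%. Ppbp was detected in 17.6% of LLC cells with a Cxcl3 UMI and 2.03% of those without, and in 9.79% of LLC cells with Pf4 and 1.03% of those without. Within the Imm TAM-2 cluster of LLC, Ppbp was detected in 28.98% of cells with Cxcl3 and 4.82% of cells without, so the pairing was also present inside 1 cluster. In LLC neutrophils Ppbp was found in 0 of 176 cells with Pf4 and in 1.68% of 1488 cells without.

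The second carcinoma library gave lower ligand levels than the first. LLC and LLC_CITEseq differ in mouse strain and in assay, which cannot be told apart, and both are compared below with the same B16 cells, so those 2 comparisons are not independent. Over all monocytes and macrophages Cxcl2 was 1060 CPM in LLC, 282 CPM in LLC_CITEseq and 188 CPM in B16. Cxcl3 was 584, 94.95 and 106 CPM, and Cxcl1 8.73, 2.26 and 2.06 CPM, in the same 3 libraries. Ppbp was 167, 32.5 and 7.95 CPM, and Pf4 1684, 1128 and 485 CPM. Cxcl2, Ppbp and Pf4 thus kept the order LLC, LLC_CITEseq, B16, and for Cxcl1 and Cxcl3 LLC_CITEseq lay beside B16. The pooled class is made of different subsets in the 3 libraries: Mono/TAM Hypoxic was 13.4% of it in LLC, 5.63% in LLC_CITEseq and 9.27% in B16, TAM-4 was 19.4%, 25.7% and 0.0871%, and TAM-1 was 0.0245%, 0.0395% and 41.0%.

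In ratios, LLC stood above LLC_CITEseq by 3.86 (3.18 to 4.72) for Cxcl1, 3.76 (3.70 to 3.83) for Cxcl2, 6.15 (5.98 to 6.33) for Cxcl3, 5.13 (4.88 to 5.39) for Ppbp and 1.49 (1.48 to 1.51) for Pf4. Of all measured genes, 2.81% were at least 1.5-fold higher in LLC than in LLC_CITEseq. Beside these ligands, 5 of 12 neutrophil markers, 7 of 16 immediate-early and dissociation-stress genes and 4 of 4 red cell markers were higher in LLC by that measure, against 0 of 8 macrophage markers, and their part in the ligand gap was not tested. Subset by subset, Cxcl2 and Cxcl3 were higher in LLC than in LLC_CITEseq in all 9 subsets with enough cells, by 1.62-fold (1.42 to 1.85, monocytes) to 4.63-fold (4.33 to 4.95, Immature TAM-2) for Cxcl2 and by 1.88-fold (1.73 to 2.05, TAM-4) to 4.54-fold (3.97 to 5.21, Immature TAM-2) for Cxcl3. Ppbp was higher in 8 of them, all but Immature TAM-3 (1.14, 0.744 to 1.73), and Pf4 in 3, Mono/TAM IFN, TAM-2 and TAM-4. For Cxcl3 the pooled ratio of 6.15 was above that of each of the 9 subsets. The share of higher genes was 2.87% in TAM-4, 4.17% in Mono/TAM IFN, 5.07% in monocytes, 5.22% in Immature TAM-2, 5.26% in TAM-3, 5.87% in LLC TAM Hypoxic, 6% in Immature TAM-3, 6.19% in TAM-2 and 10.4% in Mono/TAM Hypoxic. LLC_CITEseq stood above B16 by 4.09 (3.53 to 4.76) for Ppbp and 2.33 (2.28 to 2.37) for Pf4, with 9.93% of genes higher by 1.5-fold, by 1.501 (1.45 to 1.55) for Cxcl2 and by 1.10 (0.789 to 1.55) for Cxcl1, and below it for Cxcl3, at 0.896 (0.855 to 0.939). Cxcr2 was low in all 3, at 2.76 CPM in LLC, 2.96 in LLC_CITEseq and 1.57 in B16.

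**Figure D4:**
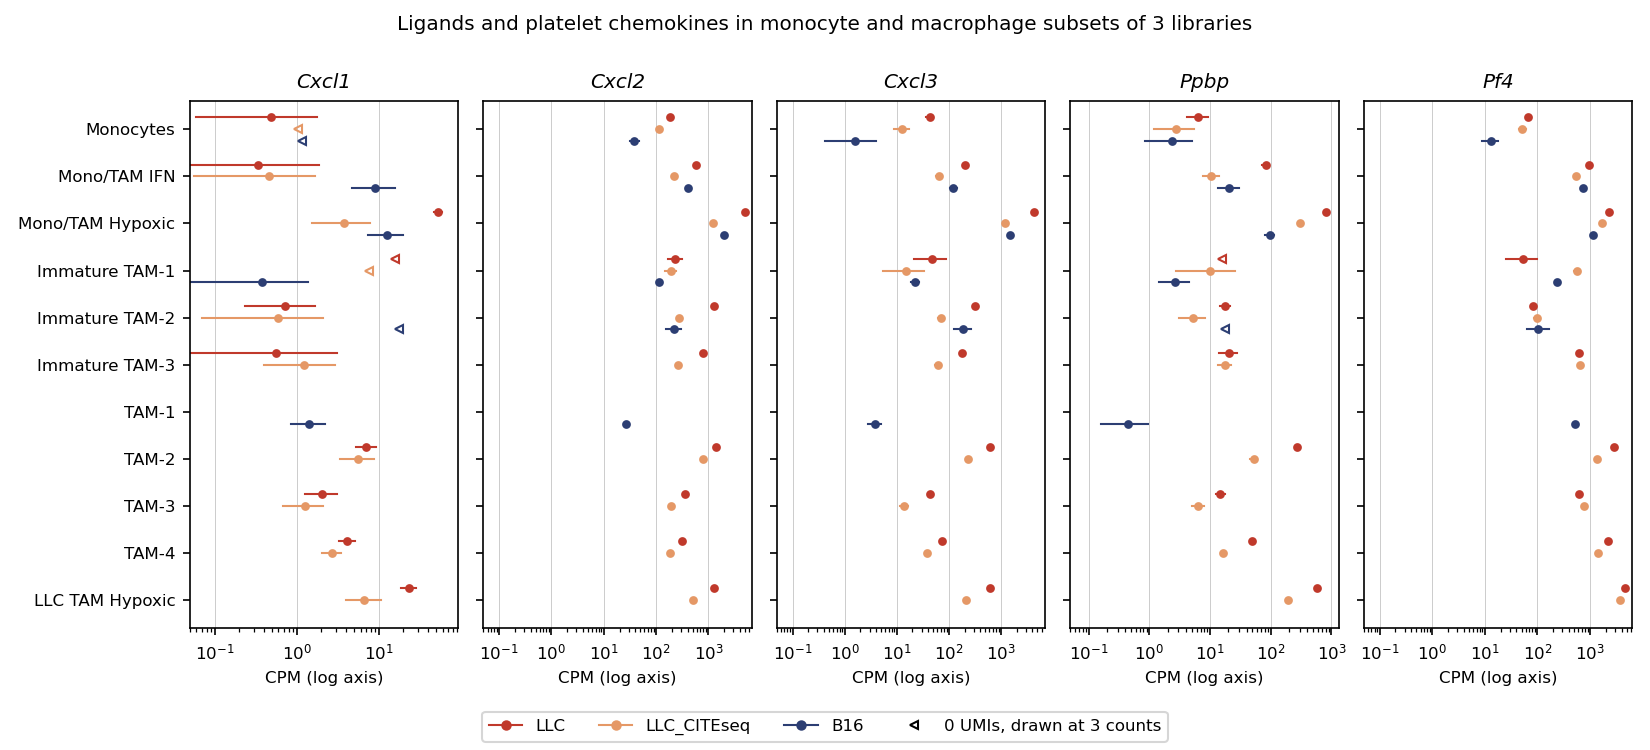
Levels of Cxcl1, Cxcl2, Cxcl3, Ppbp and Pf4 in CPM on a log axis in the monocyte and macrophage subsets of the 3 libraries, with bars for exact 95% Poisson intervals. The Mono/TAM Hypoxic subset has the highest Cxcl2 and Cxcl3 in each library (Cxcl2 at 5046 CPM in LLC, 1234 in LLC_CITEseq and 1945 in B16), and LLC TAM Hypoxic the highest Pf4 of the 2 carcinoma libraries.

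The subset annotated Mono/TAM Hypoxic carried the highest Cxcl2 and Cxcl3 levels in all 3 libraries. Cxcl3 stood at 4352 CPM in LLC, 1212 in LLC_CITEseq and 1488 in B16. Against monocytes of the same library it was 101 times higher in LLC, 95.6 times in LLC_CITEseq and 951 times in B16, where the monocytes held 4 Cxcl3 UMIs. Ppbp in that subset was 828 CPM in LLC, 301 in LLC_CITEseq and 96.7 in B16, and Pf4 was 2338, 1721 and 1135 CPM. LLC exceeded B16 here for all 5 chemokines (background 18.5%), whereas LLC_CITEseq exceeded B16 for Ppbp, 3.12 (2.59 to 3.78), and Pf4, 1.52 (1.43 to 1.61), with 15.3% of genes higher, and lay below it for Cxcl2, 0.635 (0.600 to 0.671), and Cxcl1, 0.306 (0.108 to 0.769), with 10.5% of genes lower.

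A second hypoxia-named subset, LLC TAM Hypoxic, held the highest Pf4. Pf4 there was 4546 CPM in LLC and 3745 CPM in LLC_CITEseq, 1.94 and 2.18 times the level of Mono/TAM Hypoxic, while Cxcl3 was 0.14 and 0.17 times. Ppbp was 580 CPM in LLC and 195 CPM in LLC_CITEseq, which was 11.6 and 11.7 times the TAM-4 level of each library. So the ratio between subsets was alike in the 2 carcinoma libraries for Ppbp, although the levels differed by 2.98-fold (2.70 to 3.28).

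The antibody tags of LLC_CITEseq gave a protein readout on the same cells, with 172 tags, 9 of them isotype controls. CD41, the platelet integrin alpha subunit, made up 86.7 of every 10000 tag UMIs in the 332 cells with a Ppbp UMI and 35.2 in the 9799 cells without. The median count per cell was 3 CD41 tags in cells with Ppbp and 1 in cells without. Those counts are not scaled for depth. Cells with Ppbp also had a higher median of all tags, 807.5 against 533, and of RNA UMIs, 5794 against 4515. One cell of LLC TAM Hypoxic held 777 CD41 tags together with 695 tags of CD49b, the collagen receptor subunit, and 907 of CD150; without the cell with most of each tag on each side, CD41 was 66.3 against 34.9. CD62P, the activation marker P-selectin, was 3.42 in cells with Ppbp and 3.32 in cells without, and the isotype controls were 12.97 and 21.7. Other tags also rose with Ppbp. Without the top cells, CD150 was 36.4 against 18.3, CD49b 26.9 against 16.6 and CD226 5.70 against 3.54. Over all cells CD9 was 71.8 with Ppbp and 62.0 without, and CD36 went the other way, at 6.62 and 10.0.

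CD41 was also higher with Ppbp inside subsets. It was 112 per 10000 in TAM-2 cells with Ppbp and 44.0 in those without, and 57.9 and 41.2 in TAM-4. In Mono/TAM Hypoxic it was 85.1 and 68.1, and in LLC TAM Hypoxic it was 205 and 74.4, or 82.6 and 68.7 without the top cells. Read from the tag side, with classes of CD41 counts set after the data were seen, a Ppbp UMI was found in 1.28% of the 4784 cells with 0 CD41 tags, 2.87% of those with 1 to 2, 7.003% with 3 to 9, 13.2% with 10 to 29 and 8.40% of the 119 with 30 or more. Median RNA depth moved with those classes, at 3905, 5013, 6010.5, 6195 and 6686 UMIs. Relative to depth, Ppbp was 6.91, 26.3, 51.2, 153 and 67.6 CPM.

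**Figure D5:**
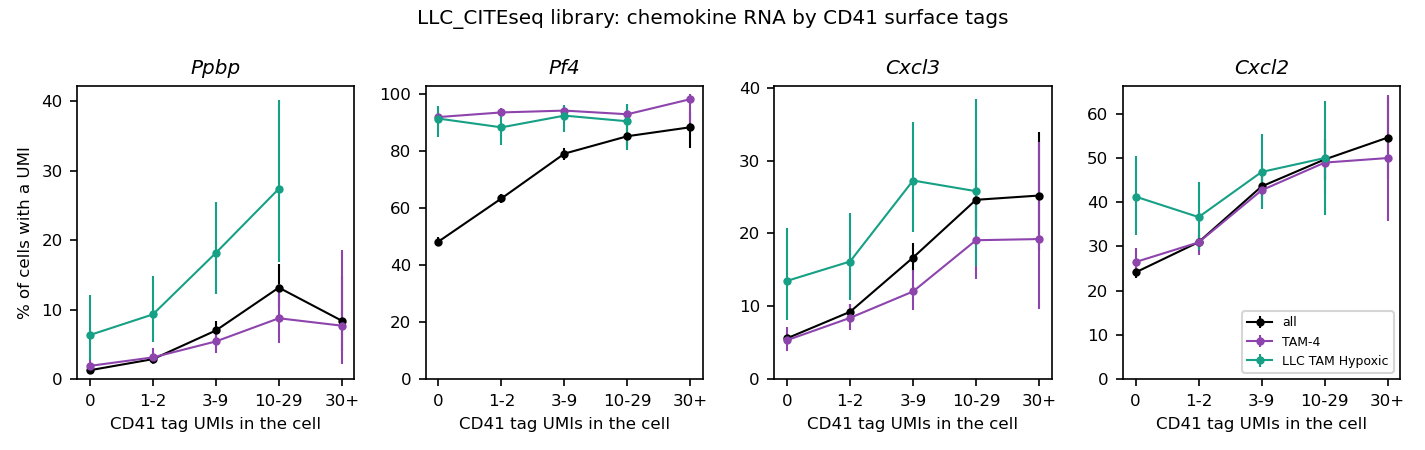
Percent of LLC_CITEseq cells with at least 1 UMI of Ppbp, Pf4, Cxcl3 or Cxcl2 (vertical axis) by CD41 tag count per cell (horizontal axis), over all cells and in the TAM-4 and LLC TAM Hypoxic subsets, with exact 95% Clopper-Pearson intervals. Over all cells Ppbp climbs to 13.2% at 10 to 29 tags and is 8.40% at 30 or more, and the other 3 genes also climb.

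Cxcl2, Cxcl3 and Pf4 were also higher with CD41, by smaller factors. Between cells with 0 tags and those with 10 to 29, Cxcl3 was 48.2 and 255 CPM, Cxcl2 229 and 425 CPM, and Pf4 790 and 1996 CPM. Cxcl1, at 2.47 (1.86 to 3.21) and 3.54 (1.89 to 6.06) CPM, lay within counting error. Inside TAM-4 Ppbp was 2.77 and 58.6 CPM in those classes, Cxcl3 14.3 and 102 CPM, and Cxcl2 137 and 241 CPM. Pf4 in TAM-4 was 1422, 1403, 1372, 1406 and 1788 CPM over the 5 classes. Cxcl1 in TAM-4 was 6.03, 1.27, 1.34, 2.66 and 0 CPM, from few UMIs. Platelet genes gave no single direction in the macrophages: the integrin gene Itgb3 was 0.404 CPM in LLC, 0.683 in LLC_CITEseq and 0.968 in B16, while Thbs1, the thrombospondin gene of platelets and also of macrophages, was 2029, 790 and 285 CPM. The platelet receptor gene Clec1b was listed at 0 in both carcinoma libraries as a whole and was 2.22 CPM in B16. Nrgn was 0.210 CPM in LLC, 0.491 in LLC_CITEseq and 1.45 in B16, and Selp was 0.226, 0.403 and 0 CPM. With 10 of the 15 platelet genes listed, among them Itga2b and Gp9, absent from the genes counted, the part of adhering platelets in the Ppbp level was not tested beyond these values. For Cxcr2, the tag of Ly6G, the neutrophil surface marker, was 37.6 per 10000 in the 122 macrophage-table cells with a Cxcr2 UMI and 6.95 in the 10009 cells without. Cells with Cxcr2 also had a higher median of all tags, 1028 against 535, and of RNA UMIs, 6762 against 4526. The part of neutrophil RNA in their Cxcr2 was not tested.

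Gene lists of the pathway, chosen with earlier results of these data known, showed how far the ligands went with their surroundings. Of the CXCR2 ligand list, the 4 measured were the members Cxcl1, Cxcl2, Cxcl3 and Ppbp, whose higher LLC levels are given above. Their median log2 ratio in monocytes and macrophages, 2.76 against 0.02 over all genes measured, restates those levels. Cxcl5, another Cxcr2 ligand, had 167 UMIs in LLC, 108 of them in Imm TAM-2, and 0 in B16, and was left out of the ratios with the other genes at 0 in a whole library. The CXC chemokines next to them in function but read by other receptors went the other way, 1 higher and 3 lower of 4, with a median of -1.17. Cxcl9, an interferon-induced ligand of Cxcr3, was 20.5 CPM in LLC and 1075 in B16, Cxcl10 was 145 and 488 CPM, and Cxcl16 285 and 431 CPM. Of 19 genes of the NF-κB response, 7 were higher and 3 lower, with a median of -0.14, where 11.9% of all genes were higher and 11.9% lower. The endotoxin co-receptor gene Cd14, at 694 CPM in LLC and 170 in B16, and the cytokine gene Il1b, at 555 and 298 CPM, were among the 7 higher. The cytokine gene Tnf, at 14.0 CPM in LLC and 35.1 in B16, and the chemokine gene Ccl4, at 133 and 541 CPM, were among the 3 lower. Neutrophil markers were higher in these macrophages too, 10 of 12, and their sum was 1010 CPM in LLC and 379 in B16; their part in the ligand levels was not tested.

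In neutrophils, 3 genes of Cxcr2 signalling and partner receptors were higher in LLC and 6 were lower of 14 measured, with a median log2 ratio of -0.42 against -0.24 over all genes, of which 14.9% were higher and 30.9% lower. The higher ones were the leukotriene B4 receptor gene Ltb4r1 (2.68-fold) and the formyl peptide receptor genes Fpr1 (2.29-fold) and Fpr2 (1.91-fold). The lower ones included Rgs2, a brake on G protein signalling, at 335 CPM in LLC and 1068 in B16, and the growth factor receptor gene Csf3r, at 1120 and 1754 CPM. Cxcr4, the receptor that holds neutrophils in the marrow, was 199 CPM in LLC and 488 in B16. Within Neutrophil-2, where Cxcr2 itself was higher in LLC, 8 of 13 signalling genes were higher and 0 lower, where 24.5% of all genes were higher and 29.7% lower, beside 9 of 11 neutrophil markers.

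Across clusters, the genes whose log levels followed each member most closely in both libraries were named as a description, over 16 LLC and 19 B16 clusters that share their library and depth. Cxcl2 and Cxcl3 were each other's nearest or near match (Pearson r of 0.959 in LLC and 0.943 in B16), with Ptgs2, the inducible prostaglandin synthase (0.937 and 0.940), next to Cxcl2. Pf4 ran with Stab1, a scavenger receptor of macrophages (0.907 and 0.905). Ppbp ran with Arg1, the arginase of myeloid cells (0.799 and 0.802), and Pf4 was itself among its 5 closest (0.709 and 0.735). Cxcr2 ran with Hdc, the histamine-forming enzyme (0.987 and 0.960), and with the neutrophil genes S100a8, S100a9 and Retnlg. Cxcl1 ran with Slc3a2 (0.854 in LLC and 0.897 in B16) and Tmem189 (0.854 and 0.866). The B16 values of Cxcl1 rest on few UMIs, with 0 in monocytes, Neutrophil-1 and naive T cells.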

How the data were processed

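The files hold the authors' deposited counts, whole-number UMI counts per gene and cell, and antibody tag counts for LLC_CITEseq, beside their annotation of cells; per the submitters' processing notes, Cell Ranger and mm10 were used, with versions not given in the sources used here. Counts were summed per annotated cluster and library (Python 3.11.15, numpy 2.4.6, scipy 1.17.1, pandas 2.3.3), divided by the summed total to give CPM, and set against each other as ratios with exact conditional binomial intervals. Where 1 side had 0 UMIs, 3 counts were assumed for it in the ratio. No cell was filtered beyond the authors' own selection; doublets were kept, and scores came from scanpy 1.11.5. Genes at 0 in a whole library (1517 in LLC and 272 in B16) were left out of the counts of higher and lower genes, a rule added after the data were seen. UMI counts carry no gene length, so levels were not compared between genes. Fewer cells of a type and less RNA per cell cannot be told apart in whole-library levels.

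The members and the gene lists were chosen with earlier results of these data known. Genes outside the members were named when they belonged to a fixed list or were among the 5 with the highest lower of the 2 libraries' correlations, over genes of at least 50 CPM in a cluster, with a pseudocount of 1 CPM. Each comparison rests on 1 library per group; alternatives were scaling, weighting of cells, thinning, doublets, platelet genes, minimum, threshold, annotation and library. No column of per-sample values was left unused.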

Additional observations from a re-analysis of the deposited data

Results flagged for a closer look

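In the monocyte and macrophage table, 4 contrasts with the same B16 cells were at least 1.5-fold higher in LLC and at least 1.5-fold lower in LLC_CITEseq. In Mono/TAM Hypoxic, Cxcl1 was 4.26 times the B16 level in LLC and 0.306 times in LLC_CITEseq, where 7 UMIs were counted. Cxcl2 in the same subset was 2.59 times the B16 level in LLC and 0.635 times in LLC_CITEseq. In Mono/TAM IFN, Cxcl3 was 1.67 times the B16 level in LLC and 0.517 times in LLC_CITEseq, and Ppbp was 4.05 times in LLC and 0.518 times in LLC_CITEseq, with 27 B16 UMIs. Few B16 cells of that subset held either gene. After thinning to 1000 UMIs, Ppbp was found in 1 of 21 B16 cells with Pf4 and 0 of 137 without. Cxcl3 was found in 3 of 29 B16 cells with Cxcl2 and 1 of 129 without. Other contrasts, such as Cxcl3 over all monocytes and macrophages (5.51 in LLC and 0.896 in LLC_CITEseq) and in Mono/TAM Hypoxic (2.93 and 0.815), lay on opposite sides of 1 without passing 1.5-fold in both. With 1 library each, these differences were not tested, and mouse strain and assay cannot be told apart in them.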

How the results depend on the processing

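No paired analysis was possible because each group had 1 library and no result came from a test. In monocytes and macrophages the ratio of LLC to B16 of each of the 6 genes kept its direction under every setting of scaling, weighting, thinning and doublets, and with the naive T cell level taken off; for Cxcr2, which lay below the naive T cell level, taking that level off gave none. With the mean of per-cell CPM it was 6.70 for Cxcl1, 5.85 for Cxcl2, 27.4 for Ppbp and 3.65 for Pf4. Thinned to 1000 UMIs it was 7.22 for Cxcl1, 5.73 for Cxcl2, 6.99 for Cxcl3, 19.5 for Ppbp and 3.63 for Pf4. Thinned to 2000 UMIs it was 7.20, 5.76, 6.13 and 3.56 for Cxcl1, Cxcl2, Cxcl3 and Pf4. Leaving out cells with doublet scores in the top 6% gave 6.62 for Cxcl2 and 3.31 for Pf4, and leaving out cells with UMIs of platelet genes (1 of the 8 listed was in the table, held by 90 B16 and 0 LLC cells, so the setting acts on B16 alone) gave 7.48 for Cxcl3. With the naive T cell level taken off it was 5.47 for Cxcl2, 6.03 for Cxcl3 and 3.25 for Pf4, and for Cxcl2 it reversed to 0.636 in Monocytes and 0.930 in Imm TAM-4. That setting took off CPM without regard to RNA depth per cell. In neutrophils, median-of-ratios scaling gave 2.74 for Cxcl2, 4.05 for Cxcl3 and 1.22 for Cxcr2. Thinning to 1000 UMIs gave 2.64 and 4.01 for Cxcl2 and Cxcl3, and to 2000 UMIs, which left out 1450 of 1955 LLC and 213 of 299 B16 neutrophils, 1.88, 2.15 and 1.22 for Cxcl2, Cxcl3 and Cxcr2, with 3 members higher in place of 5. With LLC_CITEseq in place of LLC over all monocytes and macrophages, Cxcl1 was 1.10, Cxcl2 1.501, Cxcl3 0.896 (reversed), Ppbp 4.09 and Pf4 2.33. In Mono/TAM Hypoxic it gave 0.306 for Cxcl1, 0.635 for Cxcl2 and 0.815 for Cxcl3, all reversed, 3.12 for Ppbp and 1.52 for Pf4, and in Mono/TAM IFN 0.517 for Cxcl3 and 0.518 for Ppbp, both reversed. The B16 side of those Mono/TAM IFN values rests on few cells, as given above. Without cells holding platelet genes, Cxcl3 in the macrophage table was 6.31 over all cells and 3.53 in Mono/TAM Hypoxic. The cause of these shifts was not tested. Depth limits B16 neutrophils, with 5 Cxcl1 and 0 Ppbp UMIs.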

Other observations

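In an annotation of the B16 library made without the LLC cells, the 315 neutrophils had 12945 CPM of Cxcl2, 2173 of Cxcl3 and 1040 of Cxcr2. The Mac-Lyve1 cluster of that annotation had 2110 CPM of Pf4, and the Immature Mac cluster 525 CPM of Cxcl2, 606 of Pf4 and 21.4 of Ppbp. The LLC_CITEseq cell with 777 CD41 tags held 13785 RNA UMIs, of which 2 were Ppbp and 11 Pf4. Cxcl5 was in 17 LLC cells of Imm TAM-2, where 108 UMIs were counted.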
